A study of Mus musculus with 4 samples.

Results

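The 10 genes followed here belong to the circadian clock and were measured in splenic CD8 T cells of mice given the dioxin TCDD or its solvent. They are the period genes Per1 and Per2, the cryptochrome genes Cry1 and Cry2, Clock, the nuclear receptor genes Nr1d1 and Nr1d2, Bhlhe40, and the PAR bZIP factor genes Dbp and Tef. A probe set was taken as belonging to a gene where the platform annotation gave that gene and no other, and all 10 genes had at least 1, with 16 probe sets among them. The array measured 12393 genes in that sense, out of 22626 probe sets. Each gene is given by the probe set of highest mean level, and its other probe sets are given beside it.

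The cells came from female C57BL/6 mice aged 8 to 12 weeks. The treated group had received TCDD, which binds the aryl hydrocarbon receptor (AHR), by intraperitoneal injection at 10 µg/kg, and the other had received DMSO by the same route. Spleens were taken 24 h later, and FACS gave CD8 T cells of a purity above 99%. The cells of 4 mice were pooled for a group, and each group was measured on 2 arrays whose titles number them 1 and 2. The labels do not say what a number stands for, whether its 2 arrays stem from different pools, or at which hour of the day the mice were injected or killed. The p-values therefore rest on the spread between arrays, possibly a technical one, and the number of arrays limits their precision. Values are log2 expression levels made by the authors with RMA, so a difference of 1 is a 2-fold difference. RMA values have no true zero, and a value near or below 6.01, the median of all probe sets, does not separate weak expression from none. In a sorted population, fewer cells of a type and less RNA per cell cannot be told apart.

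The mammalian clock is a loop of transcription and repression. CLOCK pairs with BMAL1 and binds E-boxes in the promoters of the period and cryptochrome genes, whose proteins return to repress that pair. The same pair drives Nr1d1, Nr1d2, Dbp and Tef: the first 2 encode REV-ERB receptors, which repress the gene for BMAL1, and the others encode activators that bind D-boxes. Bhlhe40 encodes DEC1, a repressor that competes at E-boxes. In the mouse Per1 is also an early response gene, induced through cAMP response elements and by glucocorticoids, and Bhlhe40 is induced when T cells are stimulated. T cells have a working clock, and AHR belongs to the same family of bHLH-PAS proteins as CLOCK and BMAL1.

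Promoter windows from RefSeq (mouse assembly GRCm38.p6, 250 bases before to 50 bases after a gene start) were matched for 8 of the 10 genes, in 12 windows, since a gene can have several starts. None is shown for Per2 and Bhlhe40. The windows below are those of Per1, the gene with the largest difference between array numbers, beside Cry1 and Tef, which hold an E-box motif, and Nr1d2, which holds none of the motifs marked. Capitals mark the E-box CACGTG, its variant CACGTT, the D-box TTATGNAA and TGACGTC, a part of the cAMP response element TGACGTCA, each on either strand.
Per1, first start, chr11:69098699-69098998, plus strand: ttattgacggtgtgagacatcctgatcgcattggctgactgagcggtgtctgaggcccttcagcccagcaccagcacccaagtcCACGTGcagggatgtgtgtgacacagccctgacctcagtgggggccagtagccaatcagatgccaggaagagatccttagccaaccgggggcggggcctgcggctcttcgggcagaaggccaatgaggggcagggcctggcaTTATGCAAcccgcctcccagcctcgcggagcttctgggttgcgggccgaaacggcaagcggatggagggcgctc
Per1, second start, chr11:69099902-69100201, plus strand: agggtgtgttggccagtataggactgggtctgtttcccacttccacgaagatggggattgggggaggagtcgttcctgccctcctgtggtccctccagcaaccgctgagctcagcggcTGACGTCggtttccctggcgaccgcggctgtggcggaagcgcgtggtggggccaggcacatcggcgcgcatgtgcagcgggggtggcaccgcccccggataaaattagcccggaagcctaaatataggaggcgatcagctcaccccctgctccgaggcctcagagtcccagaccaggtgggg
Cry1, chr10:85185005-85185304, minus strand: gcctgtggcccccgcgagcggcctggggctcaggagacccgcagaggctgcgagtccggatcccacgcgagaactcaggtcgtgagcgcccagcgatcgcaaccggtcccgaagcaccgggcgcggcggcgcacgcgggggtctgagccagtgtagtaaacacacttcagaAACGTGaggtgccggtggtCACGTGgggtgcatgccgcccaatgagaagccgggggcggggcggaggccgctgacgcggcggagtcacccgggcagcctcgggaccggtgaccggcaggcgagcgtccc
Tef, second start, chr15:81811164-81811463, plus strand: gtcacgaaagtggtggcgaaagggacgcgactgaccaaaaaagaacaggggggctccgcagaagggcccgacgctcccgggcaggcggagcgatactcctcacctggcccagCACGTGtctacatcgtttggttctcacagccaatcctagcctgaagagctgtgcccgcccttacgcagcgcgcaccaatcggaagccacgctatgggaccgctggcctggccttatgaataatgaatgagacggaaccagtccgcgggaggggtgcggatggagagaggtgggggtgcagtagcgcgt
Nr1d2, chr14:18239057-18239356, minus strand: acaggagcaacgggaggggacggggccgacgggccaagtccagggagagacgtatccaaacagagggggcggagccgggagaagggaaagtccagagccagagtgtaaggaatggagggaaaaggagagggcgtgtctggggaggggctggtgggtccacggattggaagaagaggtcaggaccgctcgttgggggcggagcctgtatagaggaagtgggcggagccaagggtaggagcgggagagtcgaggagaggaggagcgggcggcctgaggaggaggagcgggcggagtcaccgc

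The E-box CACGTG was found in 4 of the 12 windows, 1 each of Per1 and Cry1 and both of Tef, and in 7.15% of 32851 windows of all genes. The variant CACGTT was in 3, those of Cry1, Cry2 and Nr1d1, against 4.68% of all windows. The Per1 windows also held the only D-box of the 12, 24 bases before the first start, and the only TGACGTC, 132 bases before the second start. Those motifs stood in 3.38% and 3.21% of all windows, and the full element TGACGTCA, which contains TGACGTC, stood in none of the 12 and in 1.79% of all. The AHR core motif GCGTG, not capitalised here, was in 9 of the 12 windows and in 32.4% of all, and the motif AGGTCA that REV-ERB and ROR receptors bind, also left in lower case, was in 3 of the 12 and in 16.3%. Windows of the same gene can overlap, and a match describes letters only.

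No clock gene passed the test between TCDD and DMSO. The intervals of 7 of the 10 excluded a difference of 1, and the share of all genes that did so was not counted. These intervals rest on the spread between arrays, which may not cover that between mice. Of the 7, Per2, Cry1, Cry2 and Nr1d1 stood near or below the median level. The limma test, fitted over all probe sets with Benjamini-Hochberg adjustment, called 0 of the 10 genes at an adjusted p of 0.05, and 0% of 22626 probe sets (lowest adjusted p = 0.9973). Without adjustment, p was under 0.05 for 0 of the 10 genes and for 2.11% of all genes. None of the 10 differed by 1 or more, as did 0.145% of all genes. The median difference over the 10 genes was 0.04, against 0.01 over all 12393 genes. By main probe set, the TCDD arrays were both above the DMSO arrays for Cry2 and both below for Dbp, and the groups overlapped for the other 8 genes. Over all genes the groups did not overlap for 24.9%, close to this count of 2 in 10. With 2 arrays a group the smallest two-sided p of an exact permutation test is 0.3333, and such tests are not given for single genes.

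**Figure D1:**
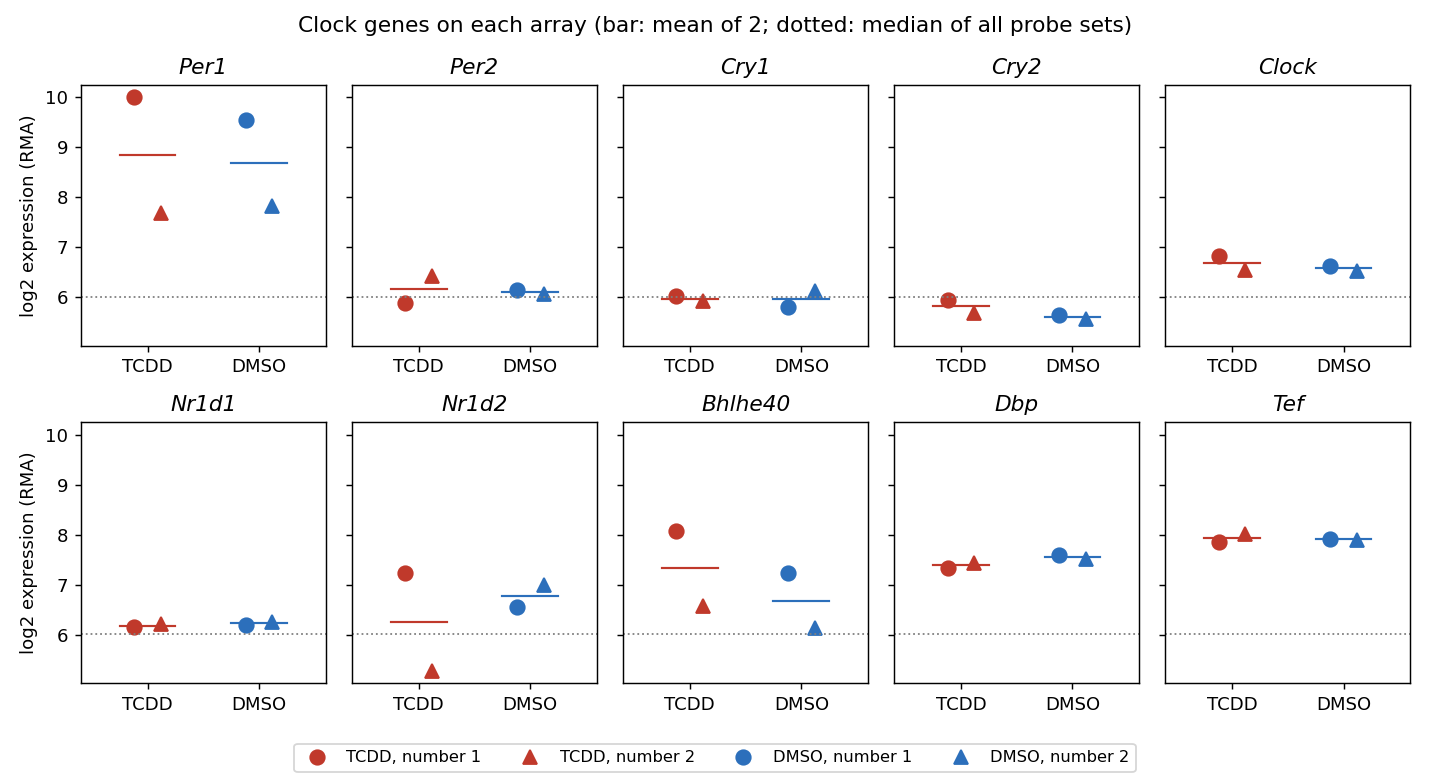
Log2 expression of the 10 clock genes on each array, TCDD on the left and DMSO on the right of each panel, with circles for arrays numbered 1 and triangles for arrays numbered 2. Bars are the means of 2 arrays and the dotted line is the median of all probe sets, 6.01. Per1, Bhlhe40 and, by a small margin, Clock have both circles above both triangles, while Nr1d1, Tef and Dbp lie within 0.25 over all 4 arrays.

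The same 10 genes were uneven between the arrays numbered 1 and 2. Per1 and Bhlhe40 measured higher in both arrays numbered 1 than in both numbered 2, 4.07-fold and 2.45-fold on average, within each treatment, and neither passed limma after adjustment. Nr1d2 had a range of 1.96 over the 4 arrays, which rested on a single low array, and its numbers overlapped. The other 7 genes differed by 0.225 or less in size between the numbers. The median difference, number 1 minus number 2, was 0.08 over the 10 genes and −0.035 over all genes, and limma called 0 of the 10, with 0.00442% of probe sets called, which is 1 probe set of 22626. That probe set belongs to Rgs1, which encodes a regulator of G protein signalling and is named here after its value was seen. It measured 9.94 in both arrays numbered 1, against 6.56 in the TCDD array and 6.68 in the DMSO array numbered 2 (limma, adjusted p = 0.01768). Both arrays numbered 1 lay above both numbered 2 for 3 of the 10 clock genes and below for 1, against 14.0% and 22.4% of all genes. These 4 in 10 stand against 36.4% of all genes without overlap in either direction. An unadjusted p under 0.05 was reached by 2 of the 10, Per1 and Bhlhe40, and by 7.53% of all genes. The same 2 genes differed by at least 1, against 0.855% of all genes.

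**Figure D2:**
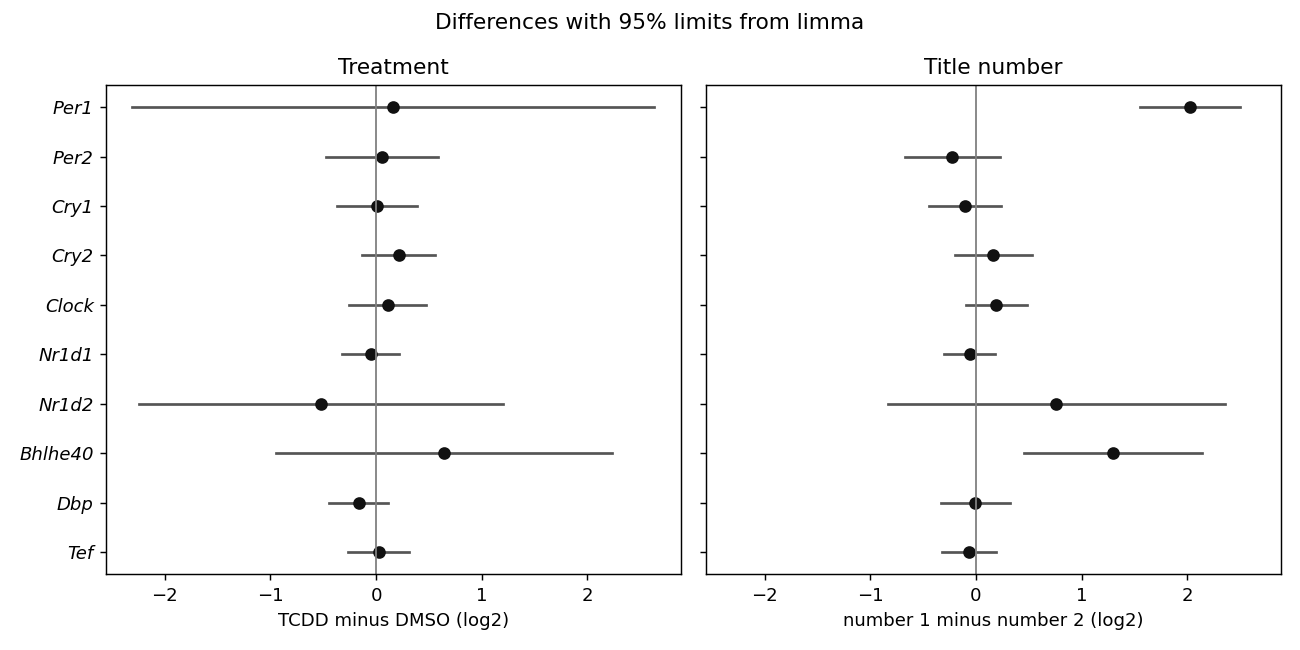
Differences in log2 expression of the 10 clock genes with 95% limits from limma, TCDD minus DMSO on the left and number 1 minus number 2 on the right. Every interval for the treatment crosses 0, and those of Per1 and Bhlhe40 for the number lie above it.

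Per1 encodes a repressor of the loop and is also an early response gene. It measured 10.01 and 7.69 in the TCDD replicates, against 9.55 and 7.82 in the DMSO replicates (numbers 1 and 2 in this order, here and below). Both arrays numbered 1 were high and both numbered 2 low, with no overlap, while the treatments overlapped. The mean was 9.78 ± 0.325 (SD, n = 2) in arrays numbered 1 and 7.755 ± 0.0919 (n = 2) in arrays numbered 2, a difference of 2.025 with limits of 1.556 and 2.494 (limma, unadjusted p = 1.362e-04, adjusted p = 0.1677). It was 2.32 within TCDD and 1.73 within DMSO, and between 1.795 and 2.255 as arrays were left out in turn. In size it stood at the 99.9th percentile of all genes. TCDD minus DMSO was 0.165, with limits of −2.305 and 2.635, and was 0.46 between the arrays numbered 1 and −0.13 between those numbered 2. That small value turned to −0.995 without TCDD replicate 1 and to −0.70 without DMSO replicate 2. It was 1.325 without TCDD replicate 2 and 1.03 without DMSO replicate 1. Each of these fits leaves 1 treatment with a single title number, so part of the number difference enters the value.

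Per2 encodes a repressor of the same kind. It measured 5.89 and 6.43 in the TCDD replicates, against 6.15 and 6.06 in the DMSO replicates. The treatments and the numbers overlapped, and the levels stood around the median of all probe sets. The difference was 0.055 between TCDD and DMSO, with limits of −0.477 and 0.587, and −0.225 between numbers 1 and 2, with limits of −0.675 and 0.225. The treatment difference was −0.215 without TCDD replicate 2. The other Per2 probe set was between 3.91 and 4.05 on the 4 arrays, near the floor of the scale. It had both TCDD arrays below both DMSO arrays, with a treatment difference of −0.125.

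The cryptochromes, the strongest repressors of CLOCK and BMAL1, had mean levels below the median of all probe sets. Over the 4 arrays Cry1 had a range of 0.31 and Cry2 of 0.38, at the 55.8th and 67.4th percentiles of all genes. Cry1 measured 6.02 and 5.92 in the TCDD replicates, against 5.81 and 6.12 in the DMSO replicates, so that both treatments and numbers overlapped. Its difference was 0.005 for TCDD minus DMSO, with fold limits of 0.772 and 1.31, and −0.105 for number 1 minus number 2. It turned to −0.045 without TCDD replicate 1 and to −0.15 without DMSO replicate 1. Cry2 measured 5.95 and 5.69 in the TCDD replicates, against 5.64 and 5.57 in the DMSO replicates. By main probe set it was the only one of the 10 genes with both TCDD arrays above both DMSO arrays. The gap between the nearest arrays of the groups was narrower than that between the TCDD arrays, and the level was below the median of all probe sets. The difference of 0.215 had limits of −0.131 and 0.561 (limma, unadjusted p = 0.1682, adjusted p = 0.9973).

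Clock, the activator that pairs with BMAL1, measured 6.83 and 6.55 in the TCDD replicates, against 6.63 and 6.53 in the DMSO replicates. Clock was the third gene with both arrays numbered 1 above both numbered 2, by 0.19 on average, with limits of −0.0987 and 0.479 (limma, adjusted p = 0.7677). TCDD minus DMSO was 0.11, with fold limits of 0.84 and 1.39, and −0.03 without TCDD replicate 1. Its other probe set, at 4.94 and 4.75 with TCDD against 4.78 and 5.08 with DMSO, overlapped in both comparisons. Arntl, the gene for its partner BMAL1, measured 6.87 and 6.79 with TCDD against 6.93 and 6.71 with DMSO, a treatment difference of 0.01.

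The REV-ERB genes differed from each other. Nr1d1 measured 6.15 and 6.21 in the TCDD replicates, against 6.20 and 6.26 in the DMSO replicates, a range of 0.11 that was at the 7.68th percentile of all genes. Both arrays numbered 1 lay below both numbered 2, by 0.06 on average. TCDD minus DMSO was −0.05, with fold limits of 0.802 and 1.16. Nr1d1 lies on the opposite strand to the 3′ end of Thra, a thyroid hormone receptor gene, and its level here was near the median of all probe sets. Nr1d2 measured 7.23 and 5.27 in the TCDD replicates, against 6.55 and 6.99 in the DMSO replicates. TCDD replicate 2 was low and the other 3 arrays were within 0.68 of each other, so the treatments and the numbers overlapped. TCDD minus DMSO was −0.52, with limits of −2.245 and 1.205, and was 0.68 between arrays numbered 1 and −1.72 between those numbered 2. Number 1 minus number 2 was 1.96 within TCDD and −0.44 within DMSO, and this unlike behaviour was not tested, since each treatment has 1 array of each number. Without TCDD replicate 2 the treatment difference turned to 0.46 and the number difference to −0.10. The other Nr1d2 probe set, below the median level, was at 4.89 and 4.70 with TCDD against 4.96 and 4.65 with DMSO. It had both arrays numbered 1 above both numbered 2, by 0.25 on average (limma, unadjusted p = 0.04618, adjusted p = 0.6599), and overlapping treatments.

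Bhlhe40, the repressor DEC1, was the clock gene with the largest difference between treatments, 0.645, and overlapping groups. It measured 8.07 and 6.58 in the TCDD replicates, against 7.23 and 6.13 in the DMSO replicates. The TCDD arrays were higher within both numbers, by 0.84 and 0.45, and arrays numbered 1 were higher within both treatments, by 1.49 and 1.10. The treatment difference had limits of −0.948 and 2.238 (limma, unadjusted p = 0.341, adjusted p = 0.9973), and turned to −0.10 without TCDD replicate 1, where only the TCDD array numbered 2 remained. It was 0.095 without DMSO replicate 2, 1.39 without TCDD replicate 2 and 1.195 without DMSO replicate 1. Between the numbers the mean was 7.65 ± 0.594 (SD, n = 2) in arrays numbered 1 and 6.355 ± 0.318 (n = 2) in arrays numbered 2, a difference of 1.295 with limits of 0.45 and 2.14 (limma, unadjusted p = 0.0115, adjusted p = 0.5197). This was 0.875 without TCDD replicate 1 and 1.715 without DMSO replicate 1.

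**Figure D3:**
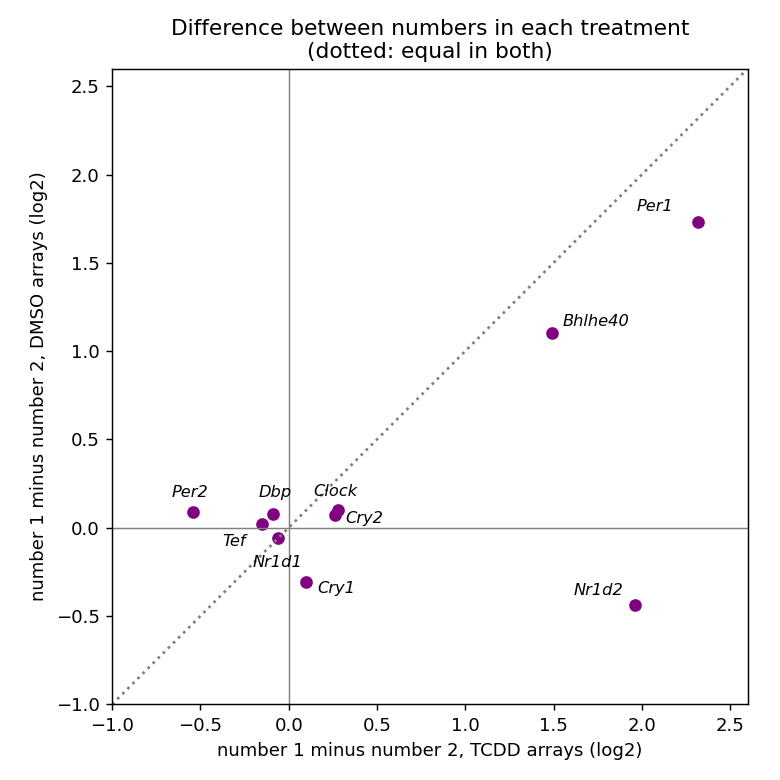
Difference between the arrays numbered 1 and 2 for each clock gene, in the TCDD arrays (horizontal axis) and in the DMSO arrays (vertical axis), both in log2 units. Each point is 1 gene, from 1 pair of arrays on each axis. Per1 and Bhlhe40 lie near the dotted line of equal differences, Nr1d2 is at 1.96 in TCDD and −0.44 in DMSO, and the other 7 genes lie near the origin.

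Dbp and Tef encode related output factors of the clock, and Dbp is among the most strongly rhythmic transcripts of mouse liver. Tef varied little over the 4 arrays. The range of Dbp, 0.25, was at the 42.1st percentile of all genes, and that of its other probe set, 0.40, at the 70.3rd. Dbp measured 7.34 and 7.43 in the TCDD replicates, against 7.59 and 7.51 in the DMSO replicates. Both TCDD arrays were below both DMSO arrays, by 0.165 on average with limits of −0.444 and 0.114 (limma, unadjusted p = 0.1857, adjusted p = 0.9973), and the arrays numbered 1 and 2 differed by −0.005. Its name marks this probe set for possible cross hybridisation, and the other Dbp probe set, at 5.56 and 5.96 with TCDD against 5.85 and 5.59 with DMSO, had a treatment difference of 0.04 and overlapping groups. Tef measured 7.86 and 8.01 in the TCDD replicates, against 7.92 and 7.90 in the DMSO replicates. All 4 arrays lay within 0.15, a range at the 15.4th percentile of all genes, and both comparisons overlapped. For this probe set TCDD minus DMSO was 0.025, with fold limits of 0.833 and 1.24, and it turned to −0.05 without TCDD replicate 2. The other Tef probe sets differed between treatments by 0.155, with fold limits of 0.904 and 1.37, and by −0.095, with fold limits of 0.766 and 1.14. The former stood above the median level and had both TCDD arrays above both DMSO arrays, at 6.74 and 6.92 against 6.68 and 6.67.

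Among other genes of the clock and its regulators, 24 of 31 listed were measured and 18 stood above the median level. The limma test called 0 of them in either comparison. An unadjusted p under 0.05 was reached by 1 of the 24 for the treatment and 3 for the number, against 2.11% and 7.53% of all genes. Both TCDD arrays were above both DMSO arrays for 2 and below for 7, against 12.9% and 12.0% of all genes, and the median difference was −0.02. Both arrays numbered 1 were above both numbered 2 for 7 and below for 3 of the 24, where all genes had 14.0% and 22.4%, with a median of 0.06. Csnk1d, the gene of the kinase CK1 delta that phosphorylates PER proteins, measured 10.95 and 10.98 with TCDD, against 10.49 and 10.34 with DMSO. Both TCDD arrays were higher, by 0.55, and this did not pass the adjustment (limma, unadjusted p = 0.004929, adjusted p = 0.9973). Nono, a PER-associated RNA-binding protein gene, measured 10.31 and 10.00 with TCDD, against 10.41 and 11.08 with DMSO, a difference of −0.59 to which DMSO replicate 2 contributed most. Sirt1, a deacetylase gene linked to CLOCK, measured 7.58 and 5.74 with TCDD, against 6.90 and 6.79 with DMSO. As for Nr1d2, TCDD replicate 2 was the low array. Of the receptors that oppose REV-ERB, Rora was at 6.29 and 5.93 with TCDD against 5.60 and 5.84 with DMSO, below the median level on average.

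Genes of the early response and of the glucocorticoid response were listed because Per1 answers to both. Both arrays numbered 1 were above both numbered 2 for 17 of 31 immediate early genes and below for 1, where all genes had 14.0% and 22.4%, and the median difference was 0.67. The limma test called 0 of the 31 in either comparison. Their mean level was 9.05 in TCDD replicate 1 and 8.21 in TCDD replicate 2, against 9.53 and 8.82 in the DMSO replicates. For the 10 glucocorticoid response genes, of which Dusp1 is in both lists, the count was 5 above and 0 below, with 0 called by limma, a median of 0.42 and mean levels of 8.87 and 8.00 in the TCDD replicates, against 8.70 and 8.20 in the DMSO replicates. Many genes of these lists thus ran with the number in the direction of Per1 and Bhlhe40, and their part in those differences was not tested. The numbers overlapped for 13 of the 31 immediate early genes and for 5 of the 10 glucocorticoid genes. Those 5 differed by between −0.085 for Zbtb16 and 0.32 for the receptor gene Nr3c1. Nfkbiz, an NF-kB cofactor gene, differed by 2.44 between numbers 1 and 2 and the early response factor gene Klf4 by 2.335. Errfi1 and Tsc22d3, genes induced by glucocorticoids, differed by 2.185 and 1.23.

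Between treatments the same lists ran otherwise. Both TCDD arrays were below both DMSO arrays for 10 of the 31 immediate early genes and above for 1, where all genes had 12.0% and 12.9%. Limma called 0 of them. Their median difference was −0.465, against 0.165 for Per1 and 0.645 for Bhlhe40. The heat-inducible HSP70 genes Hspa1a and Hspa1b had the largest differences, −1.89 and −1.79, and DMSO replicate 2 held the highest value of each. Fos followed at −1.695, with 10.51 and 10.13 with TCDD against 12.00 and 12.03 with DMSO. Its unadjusted p was the lowest of all probe sets between treatments (limma, unadjusted p = 1.703e-04, adjusted p = 0.9973). The glucocorticoid list had a median of 0.0875, with Dusp1 at −0.825 and Errfi1 at 0.345, and the groups overlapped for 9 of its 10 genes. The 10 measured AHR target genes had a median of −0.0575 between treatments, with 3 lower and 0 higher in both TCDD arrays, 7 overlapping and 0 called by limma. Nfe2l2, the gene for NRF2, lay below the median level and had the largest difference of the list in size, −1.01, at 5.54 and 5.38 with TCDD against 6.14 and 6.80 with DMSO (limma, unadjusted p = 0.009746, adjusted p = 0.9973). Cyp1a1, the standard AHR readout, and Ahrr, the AHR repressor gene, differed by −0.05 and 0.03. Their mean levels were 6.215, near the median of all probe sets, and 4.39, below it. Of the 10 AHR targets, 4 stood above that median. Tiparp was at 10.21 and 8.18 with TCDD against 9.06 and 7.78 with DMSO. It was higher after TCDD within each number and higher in number 1 within each treatment. Bhlhe40, Clock, Tsc22d3 and other listed genes had the same order of arrays, whose share over all genes was not counted. The differences of Tiparp were 0.775 for the treatment, with overlapping groups (limma, unadjusted p = 0.3716, adjusted p = 0.9973), and 1.655 for the number. The other AHR targets named by the same rule were Lpxn, at −0.215 for the treatment, and Slc46a3, at 0.145 for the number.

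Counts of cell type markers are given beside these values, read against the 14.0% of all genes that lay higher and the 22.4% that lay lower in both arrays numbered 1. The limma test called 0 genes of any marker list in either comparison. The 7 measured CD8 T cell markers were all above the median level, with mean levels of 9.23 and 9.70 in the TCDD replicates, against 9.71 and 9.86 in the DMSO replicates. Of them 2 were lower in both arrays numbered 1 and 0 higher, and the medians were −0.355 between numbers and −0.265 between treatments. In both TCDD arrays 3 were lower and 0 higher, where all genes had 12.0% and 12.9%. Of 7 neutrophil markers, 6 were lower in both arrays numbered 1 and 0 higher. Their mean levels were 6.02 and 6.29 in the TCDD replicates, against 5.95 and 7.11 in the DMSO replicates, so DMSO replicate 2 was highest. Of 10 monocyte and macrophage markers, 4 were lower and 1 higher in both arrays numbered 1, with mean levels of 6.30 and 6.41 in the TCDD replicates, against 6.10 and 6.30 in the DMSO replicates. Single genes of that list went both ways, with Csf1r at −1.05, C1qa at −0.81 and Mpeg1 at 1.495 between the numbers. Of 10 B cell markers, 3 were lower and 2 higher in both arrays numbered 1, the higher ones being the MHC class II genes H2-Aa and H2-Eb1, with mean levels of 6.66 and 6.70 in the TCDD replicates, against 6.70 and 6.41 in the DMSO replicates. Of 7 dendritic cell markers, Irf8 and Flt3 were higher in both arrays numbered 1 and 0 lower, with mean levels of 6.43 and 6.14 in the TCDD replicates, against 6.35 and 5.87 in the DMSO replicates. Of 5 plasma cell markers, 2 were lower in both arrays numbered 1 and 0 higher, with mean levels of 6.08 and 6.23 in the TCDD replicates, against 6.04 and 6.61 in the DMSO replicates, and Jchain was at −1.75. NK cell markers were lower for 2 of 5, CD4 T cell markers for 2 of 5 and erythroid markers for 1 of 4, with 0 higher in each list. Of the lists of other cell types, 5 of 10 B cell, 4 of 7 dendritic, 6 of 10 monocyte and macrophage, 6 of 7 neutrophil, 3 of 5 plasma cell, 2 of 5 NK cell, 4 of 5 CD4 T cell and 1 of 4 erythroid markers stood above the median level. The part of these markers in the differences of Per1 and Bhlhe40 was not tested.

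**Figure D4:**
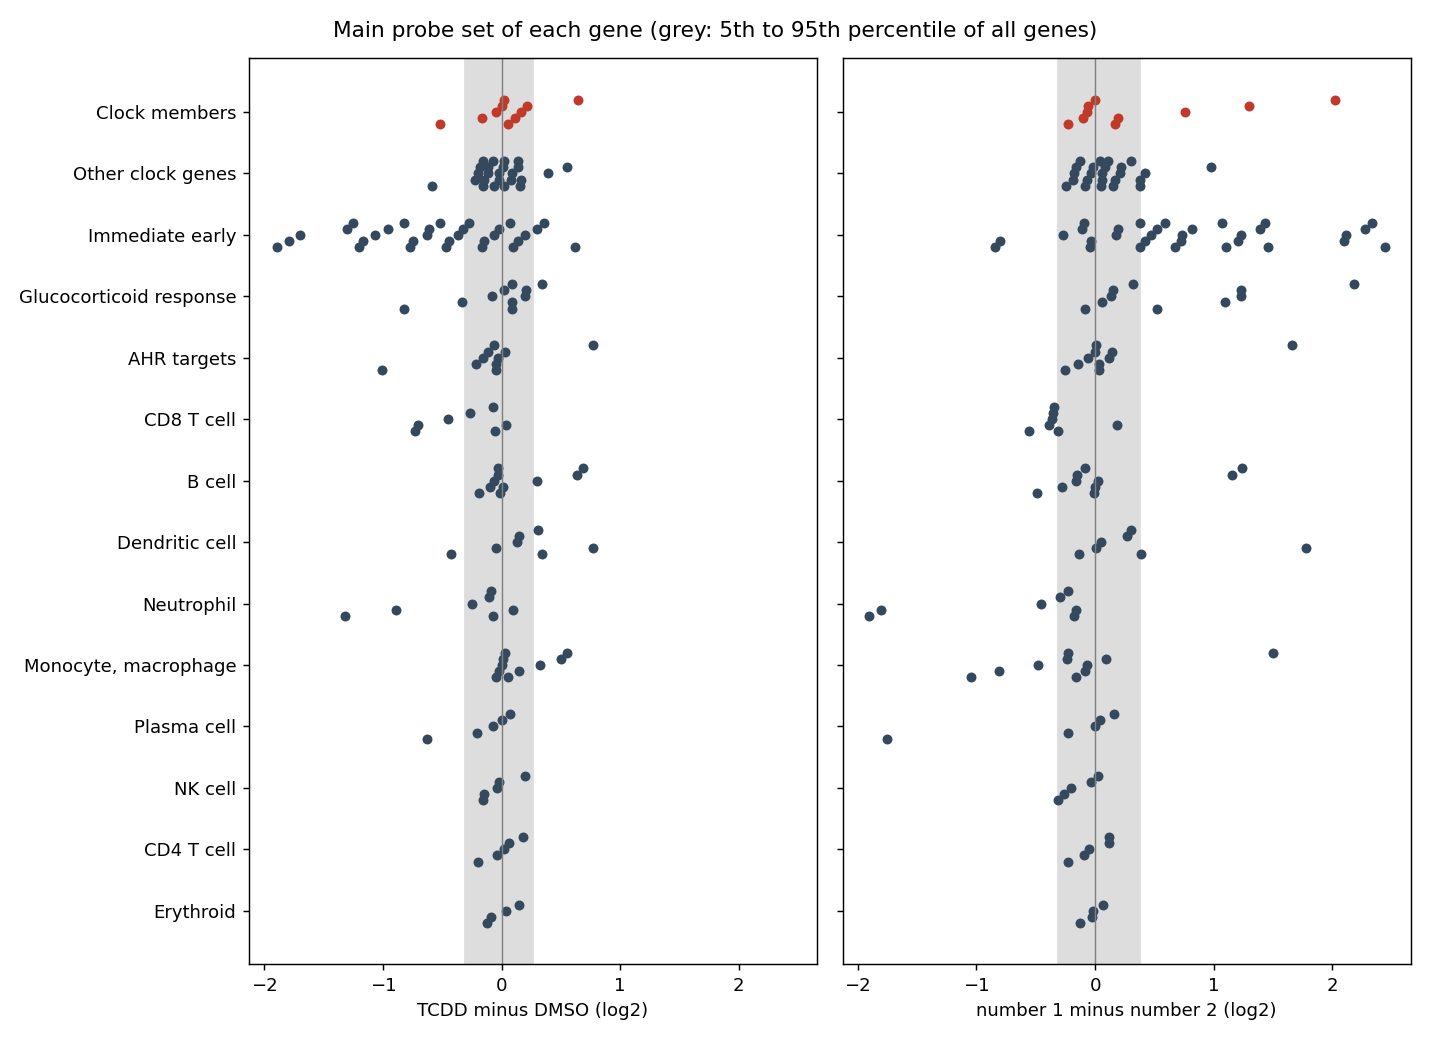
Differences of the main probe set of each listed gene in log2 units, TCDD minus DMSO on the left and number 1 minus number 2 on the right, with the clock genes in red and other lists in dark blue. Grey bands span the 5th to 95th percentile of all genes, −0.31 to 0.265 for the treatment and −0.31 to 0.375 for the number. Bhlhe40 and Nr1d2 lie outside the band for the treatment, and Per1, Bhlhe40 and Nr1d2 outside that for the number, as do many immediate early genes.

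Over all probe sets the Pearson correlation between arrays was between 0.9806 and 0.9932, and the array medians lay between 5.97 and 6.03. The most alike pair was TCDD and DMSO replicate 1. That pair differed by 0.46 for Per1, 0.84 for Bhlhe40 and 0.68 for Nr1d2, and by between −0.26 and 0.31 for the other 7 clock genes.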

How the data were processed

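The deposited log2 values were made by the authors with RMA, per the submitters' processing notes, and no version is stated there. RMA as usually run corrects background, normalises the arrays by quantiles and summarises probes, so a shift common to all genes is removed. The table held 22690 probe sets on 4 arrays, with values from 3.09 to 14.62 at 2 decimals. Of these, 64 controls were left out, 20380 had 1 gene symbol, 691 several and 1555 were unnamed here. Names came from the platform annotation, checked by Entrez identifier against RefSeq (GRCm38.p6).

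Tests used limma 3.58.1 (R 4.3.3) through lmFit and eBayes, without covariates or filters, adjusted by Benjamini-Hochberg over all 22626 probe sets, at a threshold of 0.05, with 95% limits. The fit was also run on simulated data with noise drawn independently for each array. That leaves out deviations shared by same-numbered arrays, so it does not show how the fit behaves with them. TCDD was compared with DMSO, and title number 1 with number 2. The clock genes and all lists were chosen with earlier results of these data known. Named were all 10 clock genes, listed clock genes with a difference of at least 0.5 above the median level, and the 2 largest above that level from the early response, glucocorticoid and AHR lists in each comparison. Arntl, Rora, Nfe2l2, Cyp1a1, Ahrr, Fos, Zbtb16, Nr3c1 and the marker genes, outside that rule, were named after their values were seen. Alternatives were centring, a further quantile normalisation, 2 filters, a variance trend, array weights, removal of cross-hybridising probe sets, gene means, a replicate block and leaving out each array.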

Additional observations from a re-analysis of the deposited data

How the results depend on the processing

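No alternative called a clock gene in either comparison. The 2 filters, the variance trend, array weights and the replicate block left the difference of every gene they kept at its main value. A sign could therefore turn only under the other alternatives. Apart from leaving out arrays, 173 of 176 differences of single genes kept their sign and call. The exceptions were Dbp between the numbers, at 0.035 with arrays centred on their medians, Dbp between treatments, at 0.04 without probe sets marked for cross hybridisation, and Per2 between treatments, at −0.035 for the mean of its probe sets. For Per1 between the numbers the adjusted p ran from 0.05808 to 0.9968 over the alternatives. Genes with both TCDD arrays beyond both DMSO arrays numbered 1, not 2, with the filter at the median, without probe sets marked for cross hybridisation and for gene means, and 3 with centring and with the further quantile normalisation, where the count between the numbers was 3, not 4. Probe sets called between the numbers were 11 with a variance trend and robust fitting, 7 for gene means and 0 with treatment as a term, and 0 without any 1 array.

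With the replicate block, 0 probe sets were called for TCDD minus DMSO, as without it, and Bhlhe40 had an unadjusted p of 0.01803 (limma, adjusted p = 0.9942). Deviations of same-numbered arrays correlated at 0.234 over probe sets, which with 2 pairs does not settle that the numbers pair the samples.

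As arrays were left out, 1 array was assumed to vary like the others, and the count of separated genes has no counterpart. The treatment left with 1 array then holds a single title number. Part of the number difference therefore enters the treatment difference, and the reverse. Treatment differences ran from −0.995 to 1.325 for Per1, −0.215 to 0.325 for Per2, −0.15 to 0.16 for Cry1, −0.03 to 0.25 for Clock, −1.50 to 0.46 for Nr1d2, −0.10 to 1.39 for Bhlhe40 and −0.05 to 0.10 for Tef. Number differences turned for Nr1d2, −0.10 to 1.62, and Dbp, −0.13 to 0.12. Over these fits the sign of a single gene turned 9 times for the treatment and 3 times for the number. It did not turn 31 and 37 times. The median of the 10 genes ran from −0.0375 to 0.1525 for the treatment and from −0.025 to 0.145 for the number. What else moved these values was not tested. Low signal limits Per2, Cry1, Cry2 and Nr1d1, which stood near or below the median level.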
